A study of Mus musculus with 6 samples.

Results

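The genes described here are 50 genes of the endothelial cells that line the vessels of the liver. They were taken by symbol from the expression table of the series, as markers of sinusoidal and other vascular endothelium together with ligands, receptors and transcription factors of the VEGF, angiopoietin, apelin, Notch and BMP pathways. Each of the 50 symbols was found once among the 31950 genes of the table. RNA-seq of whole liver was compared between 3 WT mice and 3 β-cateninΔ(ex3)/+ mice, 1 library per liver. All 6 mice carry the strain label C57BL/6 and an age of 8 weeks, and nothing in the labels says whether the WT mice also carried a Cre transgene or received tamoxifen. The β-cateninΔ(ex3)/+ livers (mutant livers hereafter) have 1 *Ctnnb1* allele without exon 3, the part of β-catenin through which the protein is marked for degradation. In the methods of the study, hepatic deletion of this kind was made with a tamoxifen-induced Cre under the albumin promoter (ERT2-Alb-Cre), which is active in hepatocytes and not in endothelial cells. The values are FPKM, the fragments of a gene divided by the length of its transcripts and by the number of mapped fragments of the library, so that levels of different genes in 1 library can be set side by side per length.

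Liver sinusoidal endothelial cells form a lining pierced by fenestrae and without a continuous basement membrane, and they take up waste molecules from blood through scavenger receptors. They are kept in this state by VEGF from hepatocytes, by the transcription factor GATA4 and by blood flow, while BMP and Wnt ligands made by the endothelium act on the hepatocytes in turn. Vessels with a continuous wall, such as the portal and hepatic veins, share the junction proteins but carry other surface markers. In whole liver most RNA comes from hepatocytes. A lower FPKM of an endothelial gene can reflect fewer endothelial cells, less RNA of the gene per cell, or more RNA from other cells, and bulk data cannot tell these apart.

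Endothelial identity was read from *Pecam1*, *Cdh5*, *Stab2*, *Lyve1* and *Clec4g*, which were measured in all 6 livers, from 3.30 FPKM for *Pecam1* to 29.0 FPKM for *Clec4g*. The depth, estimated from the steps between low FPKM values, was 24500000 to 24700000 fragments in WT and 17000000 to 19500000 in mutant libraries. This estimate is loose, since the mutant values lay on steps slightly more often at double that depth. The 2 groups differed in more than the *Ctnnb1* allele. *Xist*, the RNA that coats the silenced X chromosome of female cells, had a mean of 21.2 FPKM in WT and 0.00913 FPKM in mutant livers, whereas the Y-linked gene *Eif2s3y* had 0.00563 and 9.51 FPKM, so sex and genotype cannot be told apart. The labels give no sex. A list of 7 genes of the fetal and young liver (*Afp*, *H19*, *Igf2*, *Dlk1*, *Gpc3*, *Mest*, *Peg3*), which are known to be silenced after birth, summed to between 3842 and 3909 FPKM in each WT liver and to between 5.57 and 6.18 FPKM in each mutant liver. The high level in WT livers goes against their label of 8 weeks, and developmental stage and genotype cannot be told apart either. Every comparison below is between the libraries as labelled. *Glul* and *Axin2*, which β-catenin activates in liver, were higher in mutant livers, with means of 103 and 626 FPKM for *Glul* and 1.11 and 6.57 FPKM for *Axin2* in WT and mutant livers. Of the 8 genes listed for Wnt activation, these 2 included, 7 were higher in every mutant liver, as were 43.0% of all genes tested. The other 1, *Cyp2e1*, was lower in every mutant liver (means of 1672 and 1422 FPKM).

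Most of the endothelial genes were lower in mutant livers, and 6 of them passed both thresholds used, an adjusted p under 0.05 and a change of at least 2-fold. These were *Gata4*, *Ramp2*, *Stab2*, *Tie1*, *Bmp10* and *Oit3*. Of the 50 genes, 45 had a mean of at least 0.5 FPKM over the 6 livers and were tested with limma among 13243 genes. The 6 lower genes are 13.3% of those 45, beside 4.52% of all genes tested, and 0 of the 45 were higher by both thresholds, beside 8.17% of all genes tested. At an adjusted p under 0.05 and any fold, 35 of the 45 (77.8%) were lower and 3 (6.67%) were higher, whereas 19.6% of all genes tested were lower and 37.4% higher. In 38 of the 50 every mutant liver was below every WT liver, in 4 every mutant liver was above, and in 8 the groups overlapped. Among the 45 tested these counts were 35 below and 3 above, beside 23.0% and 43.0% of all genes tested. The median log2 fold change was -0.44 for the 45 genes and 0.14 for all genes tested. Scaling by median ratios moved the median of all genes by -0.14 and left the 45 genes at -0.61, and quantile normalization moved it by -0.16 and left them at -0.63, with no gene of the 45 changing direction in either. When each library was instead scaled to 8 pan-endothelial genes, 23 of the 45 genes changed direction, and the level of those 8 genes was itself lower in mutant livers. Those 8 are among the 45, so a gene of the 8 that fell less than their mean turned direction by construction. The genes were measured with a median coefficient of variation of 7.09% in WT and 6.86% in mutant livers, compared with 9.44% and 8.84% for all genes tested.

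**Figure D1:**
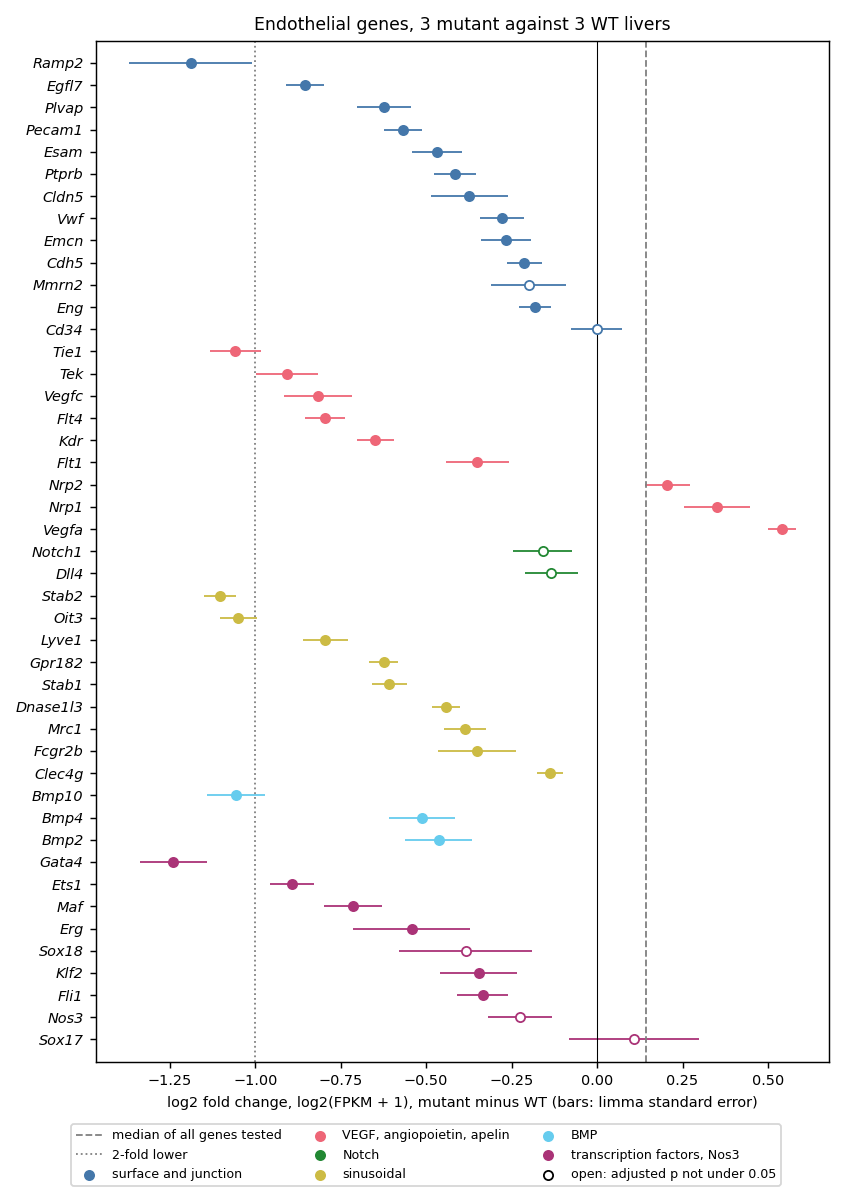
Log2 fold change on the log2(FPKM + 1) scale, mutant minus WT, of the 45 genes tested, grouped by role, with the limma standard error as bars. Filled points have an adjusted p under 0.05; the dashed line is the median of all genes tested (0.14), and 41 of the 45 points lie left of 0, although 23 genes change direction when libraries are scaled to 8 pan-endothelial genes.

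The 13 surface and junction genes, some shared by endothelium of all vessels and some marking particular vessels, were mostly lower. At an adjusted p under 0.05, 11 were lower, beside 19.6% of all genes tested, and 2 did not pass. By both thresholds 1 was lower, beside 4.52% of all genes tested. The median log2 fold change of the 13 was -0.37, and 10 of them changed direction when scaled to the pan-endothelial genes. *Pecam1*, *Cdh5*, *Esam*, *Ptprb*, *Mmrn2* and *Egfl7* are themselves among the genes used for this scaling, so their directions under it are no separate result. *Ramp2* (ENSMUSG00000001240, chromosome 11 from 101246028 to 101248250), whose product forms the adrenomedullin receptor with CALCRL, had 8.73, 6.32 and 9.99 FPKM in the WT livers and 2.45, 3.62 and 3.17 FPKM in the mutant livers. The highest mutant value lay well under the lowest WT value, though the WT livers spread by 22.3% of their mean. Its log2 fold change was -1.19 (SE 0.18, the standard error of the fit, limma adjusted p = 0.00205), a ratio of 2.71 between the WT and mutant means. The most abundant gene of the group was *Plvap*, which encodes the diaphragm protein of endothelial fenestrae and caveolae. It had 30.1, 25.9 and 31.9 FPKM in WT and 18.3, 18.96 and 18.6 FPKM in mutant livers, and fell by 0.62 on the log2 scale (limma adjusted p = 0.000983). The mutant livers were close to each other and all lay below the WT livers. *Eng*, the endoglin co-receptor for BMP9 and BMP10, came next with 19.7, 20.3 and 20.1 FPKM in WT and 18.2, 16.7 and 17.9 FPKM in mutant livers. The groups did not overlap, but the difference was small, at -0.18 on the log2 scale (SE 0.047, limma adjusted p = 0.018).

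Junction genes of this group fell by unequal amounts. *Pecam1* (CD31) went from 5.46 ± 0.309 to 3.36 ± 0.0513 FPKM (SD, n = 3), whereas *Cdh5* (VE-cadherin) went from 9.87 ± 0.274 to 8.37 ± 0.389 FPKM (SD, n = 3). *Egfl7*, a secreted endothelial factor, had the largest ratio after *Ramp2*, with 13.8 ± 0.184 FPKM in WT and 7.18 ± 0.492 FPKM in mutant livers (SD, n = 3). *Esam*, *Ptprb*, *Cldn5*, *Emcn* and *Vwf* were lower at log2 fold changes from -0.27 for *Emcn* to -0.47 for *Esam*. *Vwf*, which marks large vessels and is low in sinusoids, had means of only 0.707 and 0.406 FPKM. *Mmrn2* (log2 fold change -0.20, limma adjusted p = 0.167) and *Cd34*, a marker of continuous and capillarized endothelium (0.708 and 0.705 FPKM in WT and mutant livers, limma adjusted p = 0.987), did not pass. *Cldn5*, *Emcn* and *Eng* also fell short with single livers left out, *Cldn5* without WT replicate 1 or 3 or mutant replicate 1 or 3 (limma adjusted p up to 0.0896), *Emcn* without WT replicate 3 or mutant replicate 1 or 2 (up to 0.0763) and *Eng* without WT replicate 3 (0.0552), while *Mmrn2* passed without mutant replicate 1 (0.0429) and with median-ratio scaling or quantile normalization (limma adjusted p down to 0.0264).

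Among the 11 genes of the VEGF, angiopoietin and apelin pathways, genes moved in both directions. The receptor kinases fell and the neuropilin co-receptors and *Vegfa* rose. All 9 genes tested were past an adjusted p of 0.05, 6 lower and 3 higher. Of all genes tested 19.6% were lower and 37.4% higher at that threshold. With the pan-endothelial scaling 0 of the 9 changed direction. *Tie1* and *Tek* are themselves among the genes used for that scaling. *Tie1* (ENSMUSG00000033191, chromosome 4 from 118471191 to 118490061), a receptor tyrosine kinase that works together with the angiopoietin receptor TEK, had 6.76, 6.16 and 7.42 FPKM in WT and 2.57, 2.81 and 2.82 FPKM in mutant livers. Both groups were tight and far apart. Its log2 fold change was -1.06 (SE 0.075, limma adjusted p = 7.54e-05), and it stood just under the 2-fold limit without WT replicate 3 (-0.999). *Tek* itself (also called TIE2) went from 4.07 ± 0.373 to 1.70 ± 0.234 FPKM (SD, n = 3), a log2 fold change of -0.91 (limma adjusted p = 0.000329). The 3 VEGF receptors also fell, *Flt4* (VEGFR3) from 5.39 to 2.68 FPKM on average, *Kdr* (VEGFR2) from 5.97 to 3.45 FPKM, and *Flt1* (VEGFR1) from 0.997 to 0.565 FPKM. *Flt1* was no longer past the threshold without WT replicate 1 or 2 or without mutant replicate 1 or 3 (limma adjusted p from 0.0549 to 0.0607).

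*Vegfa*, the main ligand of KDR, which hepatocytes also make, was the most abundant gene of the pathway. The WT livers had 19.9, 20.3 and 21.1 FPKM and the mutant livers 30.4, 29.5 and 30.6 FPKM. Every mutant liver was therefore above every WT liver, by 0.54 on the log2 scale (SE 0.041, limma adjusted p = 9.95e-05). *Vegfc*, the ligand of FLT4, moved the other way, from 2.67 ± 0.0977 to 1.09 ± 0.258 FPKM (SD, n = 3; log2 fold change -0.82, limma adjusted p = 0.000781). The semaphorin and VEGF co-receptors *Nrp1* and *Nrp2* rose from 1.92 to 2.71 FPKM and from 1.25 to 1.59 FPKM (log2 fold changes of 0.35 and 0.21). These smaller increases were not past the threshold after median-ratio scaling or quantile normalization, nor without mutant replicate 1 or 2, and that of *Nrp2* also not without WT replicate 1 or 3 or mutant replicate 3 (limma adjusted p from 0.0649 to 0.0675 for *Nrp1* and from 0.0591 to 0.110 for *Nrp2* with 1 liver left out). *Vegfa* passed in each of these settings. *Aplnr*, the apelin receptor, and *Angpt2*, an antagonist of TEK, were under the expression filter. *Aplnr* had 0.284, 0.457 and 0.353 FPKM in WT and 0.134, 0.0318 and 0.0516 FPKM in mutant livers, and *Angpt2* had means of 0.443 and 0.186 FPKM, with every mutant liver below every WT liver for both.

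The 3 Notch genes of the list were low and none differed past the test, *Notch1* being the receptor, *Dll4* its endothelial ligand and *Hey1* a target of the pathway. *Notch1* had 1.51, 1.83 and 1.42 FPKM in WT and 1.304, 1.46 and 1.18 FPKM in mutant livers. *Dll4* had 1.35, 1.76 and 1.65 FPKM in WT and 1.297, 1.41 and 1.35 FPKM in mutant livers. In both genes the groups overlapped, with log2 fold changes of -0.16 (limma adjusted p = 0.162) and -0.13 (limma adjusted p = 0.188) that were past the threshold after median-ratio scaling or quantile normalization and positive after scaling to the pan-endothelial genes. *Hey1* was under the filter, at 0.378 ± 0.126 FPKM in WT and 0.237 ± 0.0718 FPKM in mutant livers (SD, n = 3).

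All 9 markers of sinusoidal endothelium were lower at an adjusted p under 0.05, beside 19.6% of all genes tested. For each of the 9, every mutant liver was below every WT liver, as in 23.0% of all genes tested. The median log2 fold change was -0.61, and the sum of the 9 went from between 125 and 127 FPKM in WT to between 82.4 and 85.5 FPKM in mutant livers. With the pan-endothelial scaling 6 of the 9 changed direction, all but *Stab2*, *Oit3* and *Lyve1*. *Stab2* (ENSMUSG00000035459, chromosome 10 from 86841198 to 87008025), which encodes the hyaluronan scavenger receptor stabilin-2, had 11.7, 11.8 and 12.1 FPKM in WT and 4.98, 4.80 and 5.22 FPKM in mutant livers. The spread within each group was a small part of the gap between them, and the log2 fold change was -1.10 (SE 0.048, limma adjusted p = 9.40e-06). *Oit3* (ENSMUSG00000009654, chromosome 10 from 59422958 to 59441778), a zona pellucida domain protein used as a sinusoidal marker, had 19.1, 20.3 and 20.0 FPKM in WT and 8.49, 9.42 and 9.24 FPKM in mutant livers. Its groups were likewise well apart, with a log2 fold change of -1.05 (SE 0.054, limma adjusted p = 1.86e-05).

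The most abundant sinusoidal marker changed least. *Clec4g*, the lectin LSECtin, had 27.5, 29.0 and 28.4 FPKM in WT and 25.5, 25.3 and 26.04 FPKM in mutant livers. Its log2 fold change of -0.14 (limma adjusted p = 0.022) was not past the threshold without WT replicate 3 or mutant replicate 1 or 2 (up to 0.0653). *Dnase1l3*, a secreted DNase, had 18.9, 18.8 and 19.6 FPKM in WT and 14.2, 13.7 and 13.6 FPKM in mutant livers, without overlap, and a log2 fold change of -0.44 (limma adjusted p = 0.000242). The other scavenger and uptake receptors fell more than *Clec4g* and less than *Stab2*. *Lyve1*, a hyaluronan receptor, fell from 7.79 to 4.08 FPKM on average, *Stab1*, stabilin-1, from 6.93 to 4.21 FPKM, and *Gpr182*, a chemokine-scavenging receptor, from 15.1 to 9.43 FPKM. *Mrc1*, the mannose receptor, and *Fcgr2b*, the inhibitory Fc receptor, which macrophages also express, fell by 0.39 and 0.35 on the log2 scale. *Fcgr2b* was not past the threshold without WT replicate 1 or 3, or without any 1 of the mutant replicates (limma adjusted p from 0.0544 to 0.117). On the opposite strand of *Stab1*, *Plvap*, *Eng*, *Gpr182* and *Bmp4* lies another gene with a mean of at least 0.5 FPKM. The libraries mark strand, but whether strand was used in counting is not stated, so fragments of such pairs may have been assigned to either gene. In WT and mutant livers the opposite genes had means of 11.4 and 3.96 FPKM for *Stab1*, and 1.88 and 1.38 FPKM for *Gpr182*. Those of *Bmp4* had 1.58 and 0.181 FPKM, of *Eng* 28.6 and 45.3 FPKM and of *Plvap* 1.81 and 3.19 FPKM. Their part in the differences of these genes was not tested.

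The BMP ligands of the list were all lower, and *Bmp10* had the largest ratio between group means of the 45 genes tested. *Bmp10* (ENSMUSG00000030046, chromosome 6 from 87428994 to 87437677) encodes a circulating ligand of the ALK1 receptor that keeps vessels quiescent. It had 1.56, 1.92 and 1.67 FPKM in WT and 0.243, 0.412 and 0.261 FPKM in mutant livers, a ratio of 5.62 between the means. Its log2 fold change of -1.06 (SE 0.085, limma adjusted p = 0.000128) understates this ratio because 1 was added to low values, and it was -2.18 with 0.1 added. *Bmp2*, which acts on hepatocytes to induce hepcidin, had 3.45, 3.54 and 3.72 FPKM in WT and 2.00, 2.18 and 2.81 FPKM in mutant livers (log2 fold change -0.46, limma adjusted p = 0.00847). *Bmp4* had 2.60, 2.90 and 2.84 FPKM in WT and 1.54, 1.44 and 2.01 FPKM in mutant livers (log2 fold change -0.51, limma adjusted p = 0.00486). Neither ligand overlapped between the groups, though mutant replicate 3 was the highest mutant liver for both, and *Bmp2* but not *Bmp4* changed direction with the pan-endothelial scaling. *Bmper*, which encodes a secreted BMP-binding protein, was under the filter, with means of 0.165 and 0.289 FPKM and every mutant liver above every WT liver.

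Of the 10 transcription factor and flow-response genes, 9 were tested. Lower at an adjusted p under 0.05 were 6 of the 9, beside 19.6% of all genes tested. With the pan-endothelial scaling 4 of the 9 changed direction (*Sox18*, *Fli1*, *Klf2* and *Nos3*). *Gata4* (ENSMUSG00000021944, chromosome 14 from 63198922 to 63271692), which specifies sinusoidal endothelium and is also expressed by hepatic stellate cells, had 7.89, 6.35 and 7.98 FPKM in WT and 2.30, 2.73 and 2.63 FPKM in mutant livers. This was the largest log2 fold change among the 45 genes tested, -1.24 (SE 0.099, limma adjusted p = 0.000125), and the groups were far apart. *Ets1*, of the ETS family that binds many endothelial promoters, fell from 5.34 ± 0.296 to 2.41 ± 0.162 FPKM (SD, n = 3), and *Maf*, a factor of sinusoidal identity, from 6.76 ± 0.414 to 3.74 ± 0.444 FPKM (SD, n = 3). The other ETS factors *Erg* and *Fli1* went from 2.35 to 1.298 FPKM and from 1.48 to 0.961 FPKM on average. *Klf2*, induced by laminar flow, was the most abundant of the group with 11.9, 9.30 and 12.9 FPKM in WT and 8.71, 8.501 and 8.71 FPKM in mutant livers. The lowest WT liver was close to the mutant livers, and the log2 fold change was -0.35 (limma adjusted p = 0.0405). The calls of *Erg* and *Klf2* were lost with single livers left out, for *Erg* without WT replicate 1 or 2 or mutant replicate 1 or 2 (limma adjusted p up to 0.0959), and for *Klf2* without WT replicate 1 or 3 or any 1 mutant replicate (up to 0.112).

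*Sox18*, which with *Sox17* acts in arterial and lymphatic development, had 8.09, 4.67 and 7.52 FPKM in WT and 5.32, 5.08 and 4.14 FPKM in mutant livers. WT replicate 2 lay among the mutant livers, and the log2 fold change of -0.38 (limma adjusted p = 0.140) was past the threshold without that liver (limma adjusted p = 0.00805) and with quantile normalization. *Sox17* was low and scattered, with 1.16, 0.509 and 0.328 FPKM in WT and 0.717, 0.616 and 0.947 FPKM in mutant livers (limma adjusted p = 0.658). *Nos3*, the endothelial nitric oxide synthase, had means of 1.86 and 1.45 FPKM, overlapping between groups (limma adjusted p = 0.0840), and passed with median-ratio scaling or quantile normalization (down to 0.0208). *Klf4*, a relative of *Klf2*, was under the filter with means of 0.608 and 0.362 FPKM and every mutant liver below every WT liver.

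**Figure D2:**
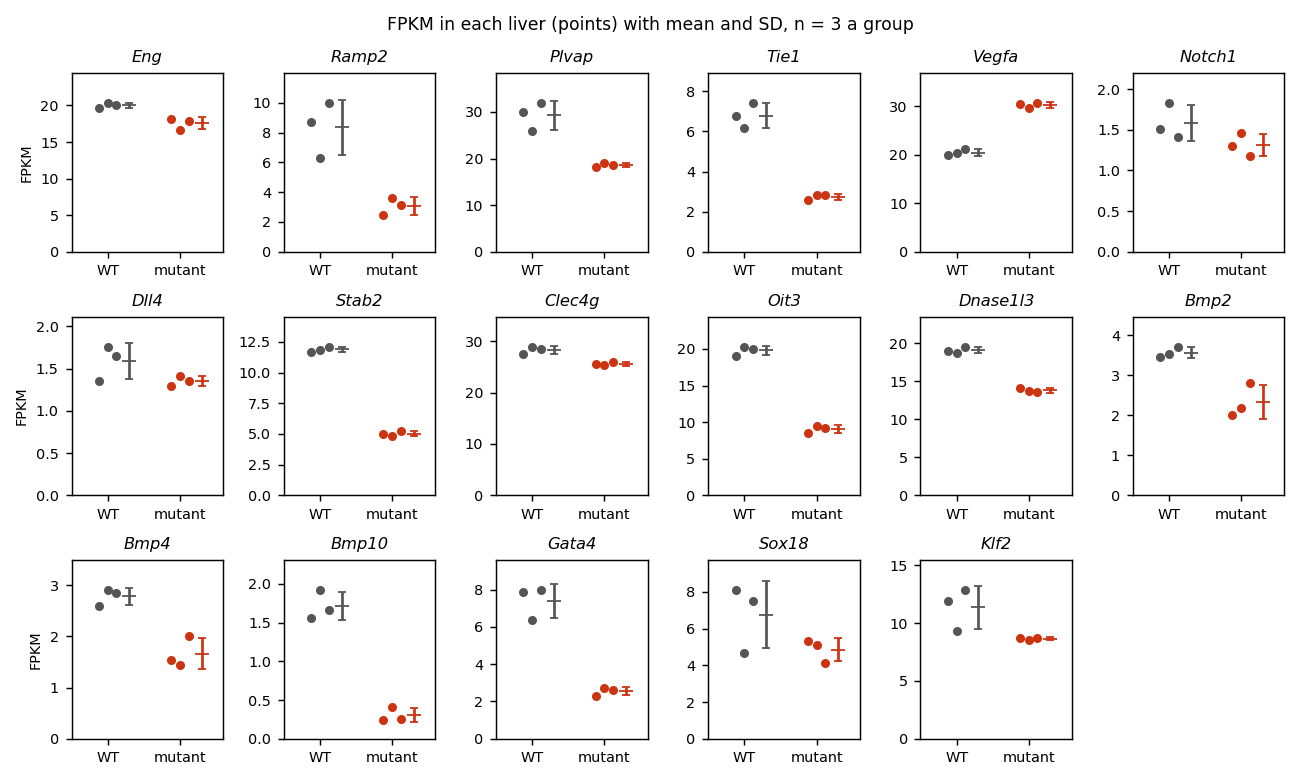
FPKM in each liver (points; grey WT, red mutant) with mean and SD (n = 3 per group) for the 6 genes past both thresholds and the 2 most abundant genes of each role. All y axes start at 0; the groups separate in every panel except *Notch1*, *Dll4* and *Sox18*, and *Vegfa* is the panel where mutant livers are higher.

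Promoter windows of 300 bases, 250 before and 50 after the start site, were available from RefSeq (GRCm38.p6) for 27 of the 50 genes, 32 windows in all, and were searched on both strands for 3 motifs. The ETS motif was CNGGAAG, the TCF/LEF motif any of CTTTGAA or else CTTTGAT or else CTTTGTA or else CTTTGTT, and the RBPJ motif, through which Notch acts, GTGGGAA, which shares the letters GGAA with the ETS motif. The ETS motif was in 15 of the 32 windows (46.9%), beside 31.9% of all 32851 windows. The TCF/LEF motif, the binding sequence of the partners of β-catenin, was in 5 of the 32 (15.6%), beside 16.9% of all windows, and the RBPJ motif in 2 (6.25%), beside 6.38%. Of the 6 genes past both thresholds, *Tie1*, *Stab2* and *Bmp10* had a window. The 100 bases before their start sites are printed 5′ to 3′ on the strand of the gene, with motif matches in capitals, to show where the motifs lie in genes past both thresholds. They lie at chr4:118489850-118489949 on the minus strand for *Tie1*, at chr10:87007943-87008042 on the minus strand for *Stab2* and at chr6:87428894-87428993 on the plus strand for *Bmp10*.
Tie1: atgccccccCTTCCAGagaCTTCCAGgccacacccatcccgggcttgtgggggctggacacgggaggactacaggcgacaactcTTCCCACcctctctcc
Stab2: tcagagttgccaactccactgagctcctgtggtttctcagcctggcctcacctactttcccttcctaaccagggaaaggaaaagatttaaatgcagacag
Bmp10: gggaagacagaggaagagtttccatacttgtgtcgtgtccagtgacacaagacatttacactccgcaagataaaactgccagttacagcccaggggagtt
The *Tie1* stretch held 2 ETS matches, from -91 to -85 and from -81 to -75 relative to the start site, and 1 RBPJ match from -16 to -10, all on the opposite strand. No match to the 3 motifs was found in the windows of *Stab2* and *Bmp10*, which says only that these letters are not in those 300 bases.

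To compare the genes with each other, each level was also expressed relative to a pan-endothelial core of 8 of the genes (*Pecam1*, *Cdh5*, *Tie1*, *Tek*, *Esam*, *Ptprb*, *Mmrn2*, *Egfl7*). The geometric mean of the core was 5.88, 5.90 and 6.09 FPKM in the WT livers and 3.60, 3.55 and 3.63 FPKM in the mutant livers, a difference of -0.73 on the log2 scale. Relative to this core (for a core gene, to the other 7), 13 of the 50 genes were lower in every mutant liver than in every WT liver, 18 were higher in every mutant liver, and 19 overlapped. For the 12928 genes tested that were above 0 in each library the corresponding shares were 6.94% lower and 76.5% higher. The smallest p that an exact permutation test of 3 livers against 3 allows is 0.1, two-sided, and each gene without overlap reached it.

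The genes that were lower relative to the core came from every role except Notch. They were led by *Aplnr* (-1.84 on the log2 scale, at under 0.5 FPKM in every liver) and *Bmp10* (-1.80), followed by *Gata4* (-0.80), *Ramp2* (-0.70), *Tie1* (-0.66), *Tek* (-0.61), *Vegfc* (-0.59), *Stab2* (-0.52), *Ets1* (-0.42) and *Oit3* (-0.40), with *Flt4*, *Egfl7* and *Lyve1* between -0.28 and -0.21. Sinusoidal markers therefore changed in both directions relative to the core. *Stab2*, *Oit3* and *Lyve1* fell more than the core, although their levels stayed above it in every liver. *Clec4g* (0.59), *Mrc1* (0.29), *Dnase1l3* (0.26) and *Gpr182* (0.053) rose relative to it, and *Stab1* (0.0086) and *Fcgr2b* (0.33) overlapped between the groups. Among the 18 genes that were higher without overlap, the low gene *Bmper* (1.52), *Vegfa* (1.29), *Nrp1* (1.24) and *Nrp2* (1.08) had the largest differences. *Sox17* had a difference of 1.10, but its groups overlapped. Of the genes without overlap, *Cd34* (0.73), *Clec4g* (0.59), *Cdh5* (0.56), *Eng* (0.54), *Mmrn2* (0.53), *Dll4* (0.51) and *Notch1* (0.46) came next. When the median of the core genes replaced their mean, values of genes outside the core shifted by 0.18, and 8 genes were lower without overlap (*Tie1*, *Aplnr*, *Vegfc*, *Stab2*, *Oit3*, *Bmp10*, *Gata4* and *Ets1*) and 25 higher.

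**Figure D3:**
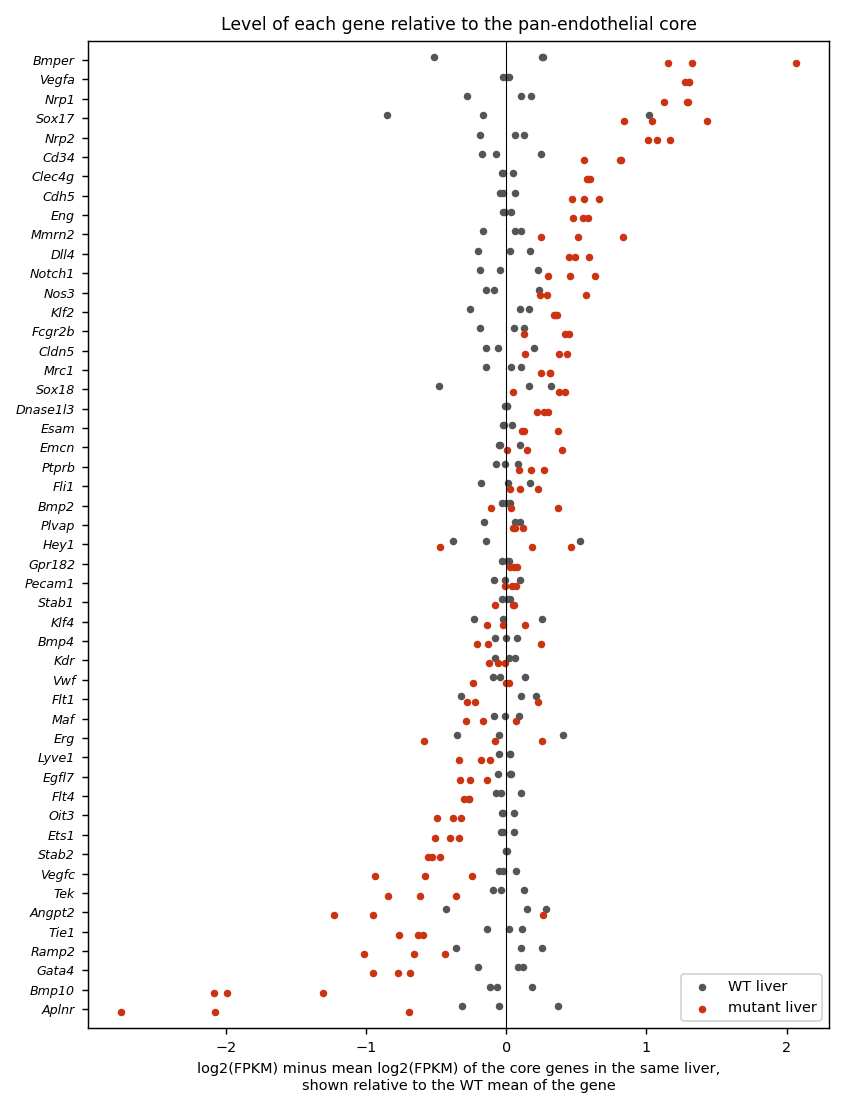
Level of each of the 50 genes relative to the pan-endothelial core in the same liver, log2 scale, set to 0 at the WT mean of the gene (grey points WT, red points mutant livers, n = 3 each). Points of *Bmp10* and *Gata4* lie left of all WT points and those of *Vegfa*, *Nrp1*, *Nrp2* and *Clec4g* right of them, whereas *Stab1*, *Pecam1* and *Kdr* overlap.

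A wider list of 57 further genes of these pathways and of endothelium was examined, of which 43 were tested. At an adjusted p under 0.05, 26 of the 43 were lower and 6 higher, beside 19.6% and 37.4% of all genes tested. By both thresholds 8 were lower and 0 higher, beside 4.52% and 8.17% of all genes tested. The median log2 fold change of the 43 was -0.36, and 3 of them changed direction with median-ratio scaling or with quantile normalization and 15 with the pan-endothelial scaling. In the Notch pathway the target genes *Heyl* and *Hes1* fell past both thresholds although *Notch1* and *Dll4* did not pass. *Hes1* had 13.1, 11.7 and 13.3 FPKM in WT and 4.66, 6.59 and 5.70 FPKM in mutant livers (log2 fold change -1.05, limma adjusted p = 0.000549), and *Heyl* went from 2.98 ± 0.311 to 0.480 ± 0.133 FPKM (SD, n = 3). *Hes1* is also expressed by hepatocytes and bile duct cells, and *Heyl* by mural cells of vessels. The ligand *Dll1* was higher at 0.763 and 1.45 FPKM, *Nrarp* was lower (log2 fold change -0.37, limma adjusted p = 0.0232), and *Notch2*, *Jag1* and *Rbpj* did not pass. The receptor gene *Notch3* and *Hey2* were under the filter, with means of 0.703 and 0.154 FPKM and of 0.166 and 0.0242 FPKM. In both, every mutant liver was below every WT liver, whereas *Notch4* and *Jag2*, also under the filter, overlapped between the groups.

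In the BMP pathway *Gdf2*, which encodes BMP9, the partner ligand of BMP10 at ALK1, fell with *Bmp10*. Which cells of the liver the RNA of these 2 ligands came from was not tested, and all 9 markers of stellate cells and fibroblasts were lower too. The WT livers had 11.3, 11.6 and 11.0 FPKM of *Gdf2* and the mutant livers 4.21, 3.36 and 3.61 FPKM, a log2 fold change of -1.39 (limma adjusted p = 2.64e-05). *Id1*, a target of this signal, went from 14.6 ± 2.19 to 5.26 ± 0.976 FPKM (SD, n = 3), and the inhibitory *Smad6* and *Smad7* were lower at log2 fold changes of -0.45 and -0.44. *Id3*, another target, was higher (log2 fold change 0.33, limma adjusted p = 0.0459), but not after median-ratio scaling (0.15, limma adjusted p = 0.298) or quantile normalization (0.041, limma adjusted p = 0.763). *Bmp6*, the other ligand known to induce hepcidin, was higher, at 0.453 ± 0.115 FPKM in WT and 0.993 ± 0.0777 FPKM in mutant livers (SD, n = 3), so that it moved opposite to *Bmp2*. The ALK1 receptor gene *Acvrl1* did not pass.

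Of the Wnt signals that central vein endothelium is known to supply to hepatocytes, the ligand *Wnt2* and the enhancer *Rspo3* were lower, whereas the ligand *Wnt9b* was too low to be tested. *Rspo3* had 2.78, 3.16 and 2.57 FPKM in WT and 0.852, 1.07 and 0.329 FPKM in mutant livers (log2 fold change -1.15, limma adjusted p = 0.00203). *Wnt2* fell from 2.98 ± 0.170 to 1.22 ± 0.130 FPKM (SD, n = 3), and *Wnt9b* had means of 0.218 and 0.252 FPKM. The cells that the RNA of *Rspo3* and *Wnt2* came from were not tested, and all 9 markers of stellate cells and fibroblasts were lower too. *Ltbp4*, which binds latent TGF-β and was listed with portal genes, went from 12.4 to 4.06 FPKM on average, and *Kit* and *Thbd*, markers of central endothelium, were lower at log2 fold changes of -0.33 and -0.30. Among other endothelial genes *Clec14a*, a surface lectin of vessels, fell most, from 7.37 ± 0.347 to 1.89 ± 0.271 FPKM (SD, n = 3; log2 fold change -1.54, limma adjusted p = 2.52e-05). *Ephb4*, a receptor of venous endothelium, went from 9.05 to 3.89 FPKM on average and was the other gene of that set past both thresholds. *S1pr1*, the sphingosine 1-phosphate receptor of endothelium and lymphocytes, rose instead, from 11.6 ± 0.260 to 19.6 ± 1.17 FPKM (SD, n = 3; log2 fold change 0.71, limma adjusted p = 0.000102). *Msr1* and *Clec1b*, which macrophages express as well, were also higher, at log2 fold changes of 0.77 and 0.36.

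**Figure D4:**
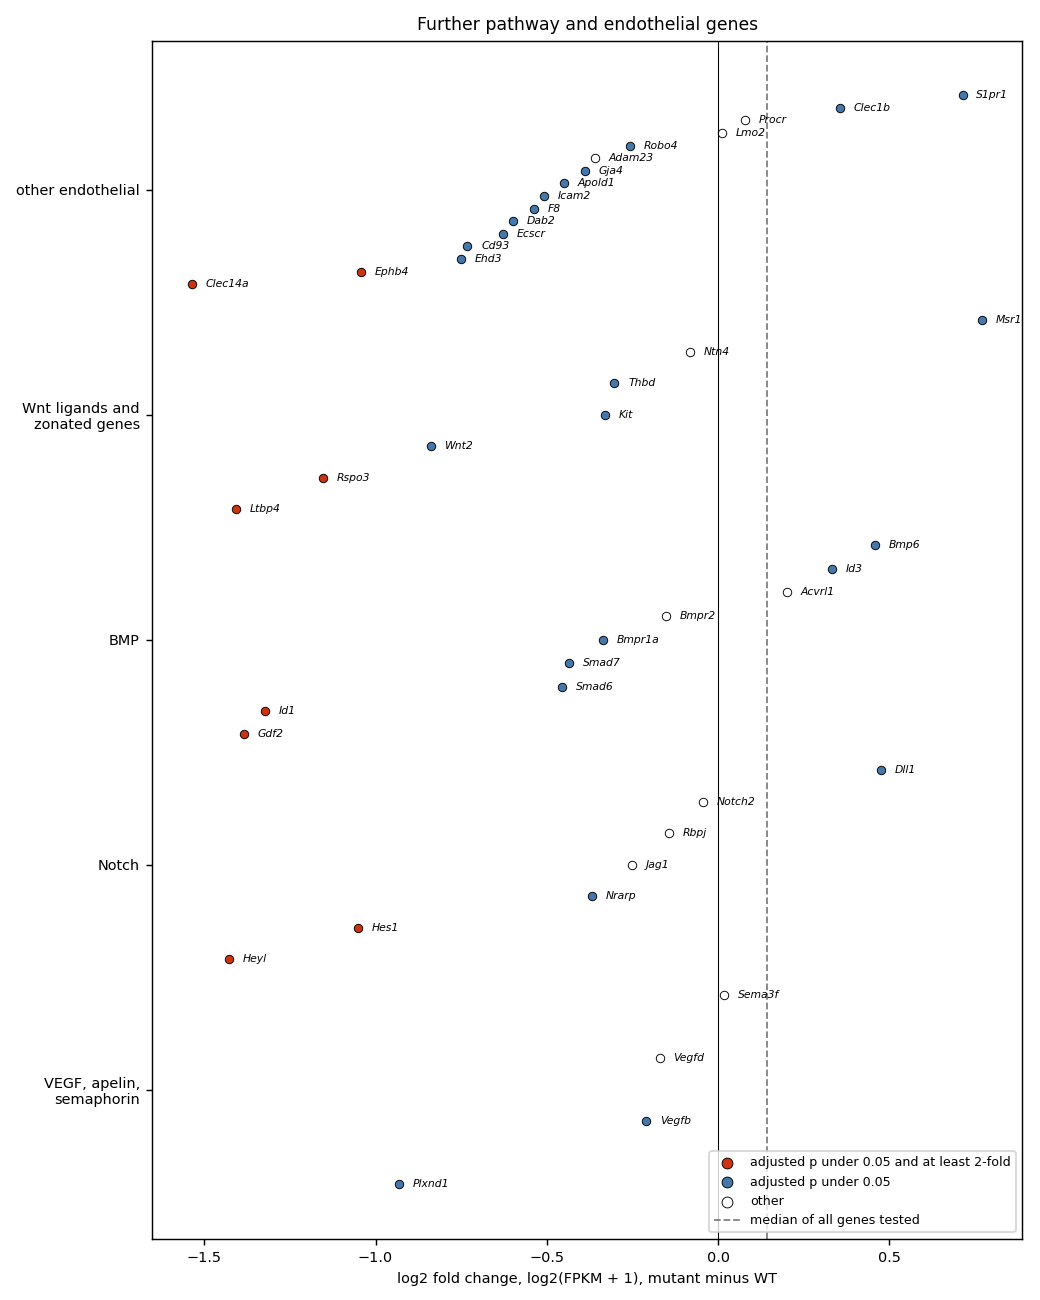
Log2 fold change on the log2(FPKM + 1) scale, mutant minus WT, of the 43 further genes tested, 1 point per gene, by pathway (red, adjusted p under 0.05 and at least 2-fold; blue, adjusted p under 0.05; white, other). The 8 red points all lie left of -1 and 6 blue points lie right of 0, of which *Id3* is not past the threshold after median-ratio scaling or quantile normalization.

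Markers of other cells of the liver also differed between the groups, in both directions, and their part in the results above was not tested. At an adjusted p under 0.05, 19.6% of all genes tested were lower and 37.4% higher, and by both thresholds 4.52% and 8.17%. All 9 markers of stellate cells and fibroblasts were lower at an adjusted p under 0.05, 6 by both thresholds, with a summed level of 136 to 140 FPKM in WT and 39.7 to 46.7 FPKM in mutant livers. Of 10 Kupffer cell markers, 9 were higher, 7 by both thresholds, and *Marco* was lower, with sums of 393 to 414 FPKM in WT and 988 to 999.8 FPKM in mutant livers. All 7 erythroid genes tested, of 8 listed, were lower (sums of 3306 to 3648 and 1809 to 1871 FPKM), as were 3 of 4 megakaryocyte and platelet genes (25.7 to 28.0 and 3.55 to 5.04 FPKM). Both smooth muscle genes tested, of 4 listed, were lower (12.01 to 13.5 and 4.77 to 7.73 FPKM), and of 4 bile duct genes tested, of 5 listed, 2 were lower (39.6 to 43.1 and 18.5 to 19.3 FPKM). Of 4 lymphoid genes tested, of 6 listed, 2 were lower and 1 higher (16.1 to 17.5 and 7.65 to 8.42 FPKM). Of 8 hepatocyte genes 4 were lower and 3 higher, with sums of 70115 to 73394 FPKM in WT and 35097 to 35351 FPKM in mutant livers. *Alb* had the largest part of these sums, with means of 41434 and 24841 FPKM. All 6 proliferation genes were higher, with sums of 9.87 to 10.9 FPKM in WT and 17.4 to 18.5 FPKM in mutant livers. The median log2 fold change was -0.52 for the 8 core endothelial genes, -1.31 for the stellate list and 1.26 for the Kupffer list.

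**Figure D5:**
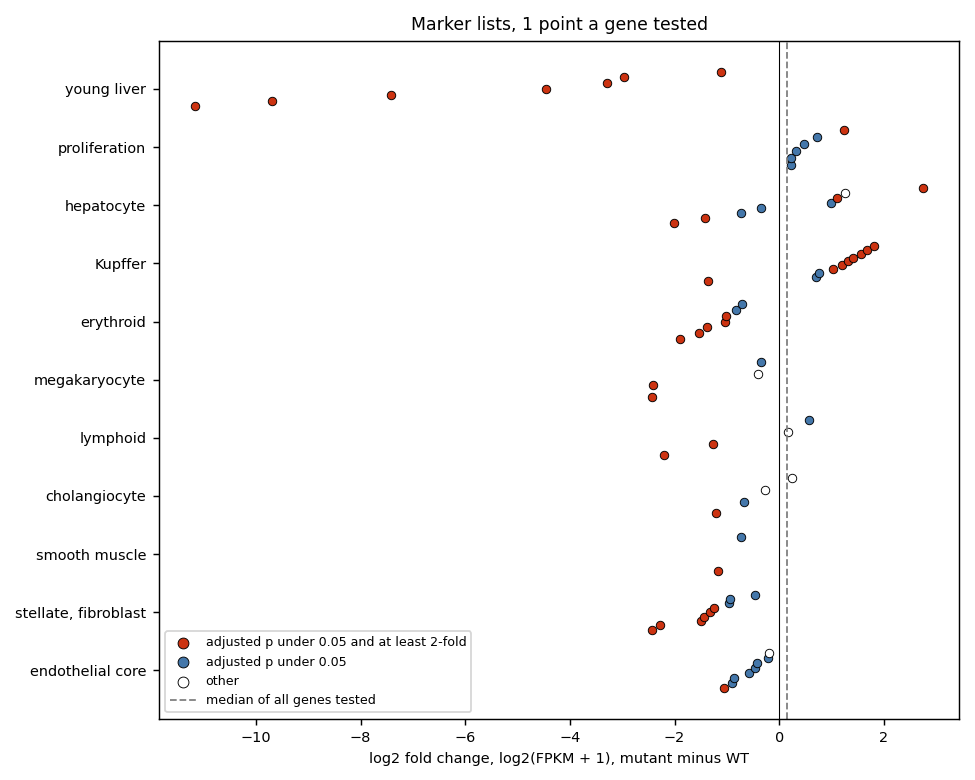
Log2 fold change on the log2(FPKM + 1) scale, mutant minus WT, of marker genes of liver cell types, of proliferation and of young liver, 1 point per gene tested (red, adjusted p under 0.05 and at least 2-fold; blue, adjusted p under 0.05; white, other). The 8 core endothelial genes lie between -1.06 and -0.20, all 9 stellate points lie below 0, and 9 of the 10 Kupffer points lie above 0.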

How the data were processed

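Livers were compared by RNA-seq as labelled, 3 WT and 3 β-cateninΔ(ex3)/+. The deposited table holds FPKM, computed by the authors for every gene in every liver. The submitters' processing notes name cutadapt 1.9, HISAT2 2.0.4, StringTie 1.3.4d, DESeq2 and edgeR; the genome build is not given in the sources used here, but 28874 of 31950 genes have the start and end of GENCODE M21 (GRCm38). The libraries were poly(A)-selected and stranded. FPKM are not counts, so no count test was run, and depth was estimated from 8647 single-exon genes, with 19.5% to 27.4% of low values on steps (4% by chance).

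From the deposited FPKM, log2(FPKM + 1) was fitted for genes with a mean of at least 0.5 with limma 3.58.1 (R 4.3.3, intensity trend, Benjamini-Hochberg adjustment over the 13243 genes). The fold change scale understates low genes. The code was tested on simulated data. Core-relative values were compared by exact permutation tests (Python 3.11.15, scipy 1.17.1). Nothing says that livers of a group were handled independently, so p-values measure the spread between these livers. The members, lists, tests and alternatives were chosen with earlier results of these data known. Levels are given by liver for members past both thresholds and for the 2 most abundant of each role; further pathway genes past both thresholds are named, and others named were chosen after their values were seen. Alternatives were pseudocount 0.1, other filters and thresholds, 3 other scalings, eBayes without a trend, a replicate block and each liver left out.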

Additional observations from a re-analysis of the deposited data

How the results depend on the processing

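The 6 members past both thresholds (lower) were called in each alternative that used the same 2-fold limit except without WT replicate 3, where *Tie1* was not, the core scaling not being counted here (5 to 6 with 1 liver left out). Quantile normalization gave 10 (the same 6 with *Egfl7*, *Ets1*, *Lyve1* and *Tek*), median-ratio scaling 9, a pseudocount of 0.1 also 9, and a limit of 0.58 on the log2 scale 17. With 1 liver left out, 0 members were higher by both thresholds, 29 to 34 were lower at an adjusted p under 0.05 and 1 to 3 were higher. The 3 higher members became 1 with quantile normalization, 1 with median-ratio scaling, and 1 without mutant replicate 1 or without mutant replicate 2. Of the further genes 6 to 9 were lower and 0 higher by both thresholds with 1 liver left out, and 1 was higher at a pseudocount of 0.1. Without the expression filter 32 members, some of them otherwise untested, were lower and 2 higher at an adjusted p under 0.05, and the calls of *Cldn5*, *Emcn*, *Nrp2*, *Fcgr2b*, *Erg* and *Klf2* were lost (limma adjusted p from 0.0527 to 0.0817). With quantile normalization *Mmrn2*, *Notch1*, *Dll4*, *Sox18* and *Nos3* were lower past the threshold, and with median-ratio scaling these except *Sox18*. The cause of these changes was not tested.

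Same-numbered livers showed little common deviation (correlations of 0.027, 0.021 and -0.0054), and differently numbered livers had correlations from -0.036 to 0.012. With so few livers per group, these values cannot decide whether livers of the same number belong together. With the replicate number as a replicate block the count of members past both thresholds was again 6, 32 were lower and 2 higher at an adjusted p under 0.05, and the calls of *Cldn5*, *Eng*, *Nrp2*, *Clec4g* and *Erg* were lost (limma adjusted p from 0.0566 to 0.0864) while *Nos3* passed (0.0462).

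Directions turned with scaling to the pan-endothelial core, which removes the fall of the core by construction: log2 fold changes became 0.023 for *Pecam1*, 0.44 for *Cdh5*, 0.15 for *Esam*, 0.28 for *Cldn5*, 0.092 for *Emcn*, 0.35 for *Mmrn2*, 0.51 for *Eng*, 0.11 for *Ptprb*, 0.30 for *Cd34*, 0.077 for *Plvap*, 0.27 for *Notch1*, 0.30 for *Dll4*, 0.0074 for *Stab1*, 0.57 for *Clec4g*, 0.29 for *Fcgr2b*, 0.25 for *Mrc1*, 0.25 for *Dnase1l3*, 0.049 for *Gpr182*, 0.077 for *Bmp2*, 0.23 for *Sox18*, 0.062 for *Fli1*, 0.32 for *Klf2* and 0.23 for *Nos3*. With 1 liver left out *Cd34* ranged from -0.041 to 0.048, and was also positive without mutant replicate 1 (0.034), and *Sox17* ranged from -0.040 (without WT replicate 3) to 0.31. Neither passed the test in any of these. Depth limits the 5 members under 0.5 FPKM, for which no counts are known.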
